A study of Mus musculus with 2 samples.

Results

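The interferon regulatory factors (IRFs) are a family of transcription factors, and their transcripts are described here in marrow cells of mice after culture with ID8 tumour cells. The family was taken as 8 genes, Irf1, Irf2, Irf3, Irf4, Irf5, Irf7, Irf8 and Irf9, chosen by name, and every array probe set whose only annotated symbol was one of these was used. All 8 genes were measured, by 14 probe sets, among 18193 genes read by at least 1 such single-symbol probe set. RNA of 2 samples was hybridised, with 1 array per group. The first group was ID8-induced MDSC: C57BL/6 femoral marrow cells kept for 4 days below ID8 cells (a mouse ovarian surface epithelial tumour line, also written 1D8 in the labels) in a transwell plate. The labels call the product supernatant-induced and CD11b+Gr1+. MDSC stands for myeloid-derived suppressor cells, a mixed set of immature neutrophils and monocytes known for suppressing T cells. The second group was the control, C57BL/6 femoral marrow cells that the labels give no tumour cells and the same CD11b+Gr1+ phenotype. Neither the age and sex of the mice, nor how many mice were used, nor whether the control was cultured as long, is stated in the labels.

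No comparison between the groups was made for the IRF genes. The control signals stand in 2 interleaved descending sequences down the rows of the table, with 0 rises within either, so they cannot be tied to probe sets. Every value below is therefore from the ID8-induced MDSC array alone, has no replicate error, and says nothing of how tumour cells altered a gene. The array measured a mixed culture, so a weak signal in many cells and a strong signal in few cannot be told apart.

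IRFs share an amino-terminal DNA-binding domain with conserved tryptophans, which recognises GAAA repeats in the interferon-stimulated response element (ISRE). Pattern recognition receptors lead to phosphorylation of IRF3 and IRF7 by the kinases TBK1 and IKK epsilon, and the phosphorylated factors switch on type I interferon genes. Secreted interferon then acts through its receptors, and IRF9 acts with STAT2 in the complex ISGF3 that drives antiviral genes. IRF8 and IRF4 bind DNA largely with partners such as PU.1 and direct the development of monocytes, dendritic cells and lymphocytes. IRF8 is known in mouse marrow for favouring monocyte over neutrophil output, and loss of Irf8 expands granulocytic cells that resemble MDSC.

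Signals are deposited MAS5 intensities on a linear scale. The percentile of a probe set tells how many of the array's 45037 probe sets, in percent, had a lower signal. The floor used below is the 40th percentile of the array, a signal of 68.77, since detection calls were not given. Because probe sets hybridise with different strength, a percentile places a signal on the array and does not rank transcripts by abundance. Of the 14 IRF probe sets, 13 reached the floor, against 63.5% of all named probe sets. By the brightest probe set, 8 of 8 IRF genes reached it, against 71.3% of all named genes. Every probe set of the gene reached it for 7 of 8 IRF genes, against 49.7% of all named genes. The exception was Irf4. By the brightest probe set, 5 of 8 IRF genes reached the 90th percentile (a signal of 619.81), against 14.8% of all named genes. The median percentile was 92.5 over the 8 genes and 61.4 over all named genes.

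**Figure D1:**
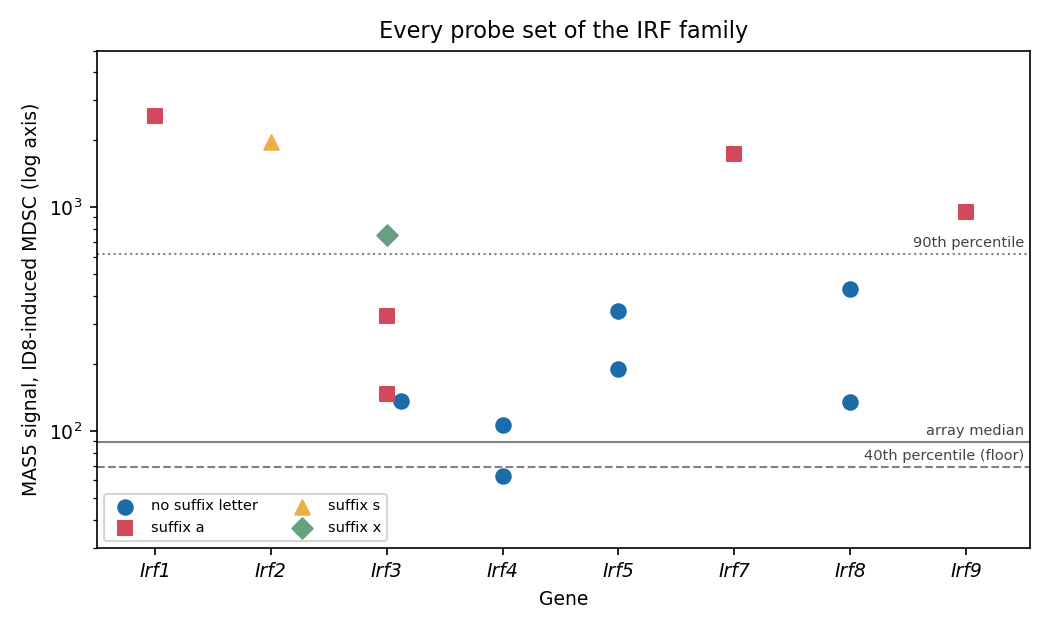
MAS5 signal (log axis) of each of the 14 IRF probe sets on the ID8-induced MDSC array, with the gene on the horizontal axis and the marker showing the suffix letter of the probe set; horizontal lines mark the 40th percentile (68.77), the median (89.52) and the 90th percentile (619.81) of the array. Irf1, Irf2, Irf7 and Irf9 each have 1 probe set and lie above the 90th percentile, while the 2 probe sets of Irf4 lie on either side of the floor; the point of Irf3 with no suffix letter is moved sideways so that it can be seen.

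Irf1 and Irf2, an activator and its classical antagonist on the same DNA sites, both gave strong signals. Irf1, which is induced by interferon gamma and drives antigen presentation genes, read 2563.36 on its single probe set (percentile 97.7). Irf2, which represses many IRF1 targets, read 1959.67 on its single probe set (percentile 96.8). Both values are more than 25 times the floor, at 37.27 and 28.49 times. Each rests on 1 probe set, and that of Irf2 carries the suffix s, which Affymetrix gives to probes shared by several transcripts, also of different genes.

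The factors of interferon induction and response split into bright and moderate signals. Irf7, the amplifier of type I interferon production that is itself an interferon-stimulated gene, read 1727.07 (percentile 96.4). Irf9, the DNA-binding subunit of ISGF3, read 952.83 (percentile 93.3). Irf3, the factor that waits in the cytosol for phosphorylation, was read by 4 probe sets at 753.23, 324.60, 146.54 and 135.67. These signals spread over percentiles 63.7 to 91.6. The brightest of them carries the suffix x, given to probe sets with probes that can match other sequences, and the next below it stood at percentile 82.5. Irf5, which acts downstream of Toll-like receptors in inflammatory cytokine induction, read 342.24 and 188.08 (percentiles 83.2 and 72.3). Both Irf5 probe sets therefore lay between the floor and the 90th percentile.

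The lineage factors Irf8 and Irf4 differed in their place on the array, with Irf8 between Irf3 and Irf5 by the brightest probe set and Irf4 last of the family. Irf8 read 430.63 and 134.77 (percentiles 86.2 and 63.5) on 2 probe sets designed from the same sequence record. Both lay above the array median of 89.52. Irf4, known from plasma cells, some dendritic cells and alternatively activated macrophages, read 106.00 and 62.52 (percentiles 56.0 and 36.5), again on 2 probe sets from 1 record. The brighter stood at 1.54 times the floor and the dimmer at 0.91 of it, so whether Irf4 counts as above the floor depends on the probe set.

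Disagreement between probe sets of a gene is the one internal check that 1 array offers, and the IRF genes fell on both sides of the medians of comparable genes. The brightest over the dimmest signal was 3.2 for Irf8, 1.82 for Irf5 and 1.7 for Irf4. The median of this ratio was 2.12 over the 4695 genes with 2 probe sets, of which 69.4%, 42% and 37.7% had a smaller ratio than Irf8, Irf5 and Irf4. For Irf3 the ratio was 5.55, against a median of 5.25 over 1092 of the 1093 genes with 4 probe sets, and 53.8% of those had a smaller one. The gene left out had a dimmest signal of 0 and so no ratio.

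**Figure D2:**
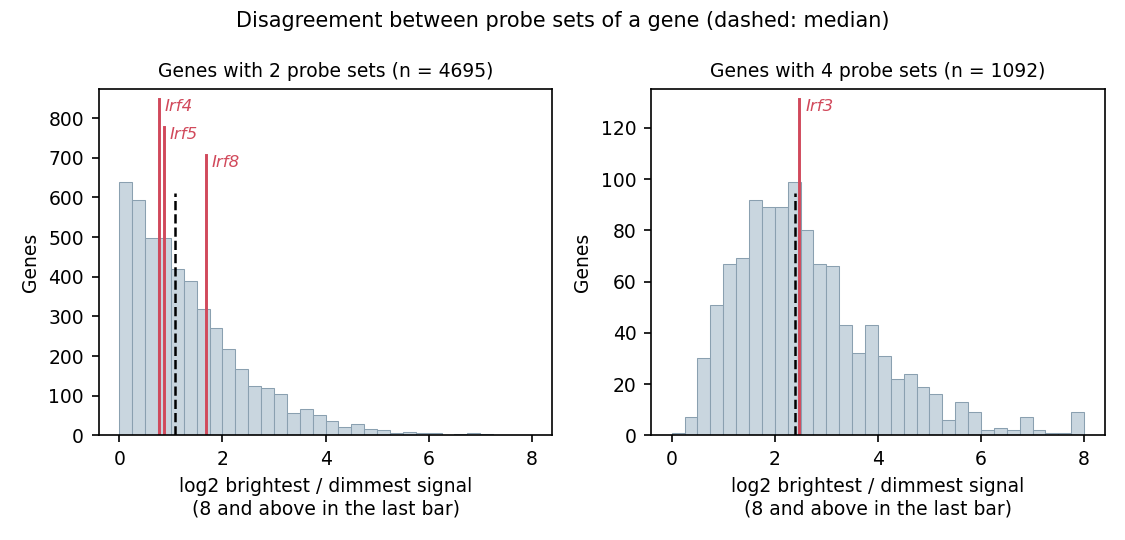
Number of genes by the log2 ratio of the brightest to the dimmest probe set on the ID8-induced MDSC array, for genes with 2 probe sets (left, 4695 genes) and with 4 (right, 1092 genes); red lines mark IRF genes and dashed lines the median ratio (2.12 and 5.25). Irf4 (1.7) and Irf5 (1.82) lie below their median, Irf8 (3.2) above it, and Irf3 (5.55) close to it.

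Signal and probe set design moved together within the family. The 4 members with a single probe set, Irf1, Irf2, Irf7 and Irf9, are the 4 highest by percentile, and each of those probe sets has a suffix letter. Among all named probe sets, the median percentile was 69.7 for the 4084 with suffix a (all probes match transcripts of 1 gene), 68.5 for the 1831 with suffix s, 62.0 for the 2038 with suffix x and 50.3 for the 26992 with no letter. Among genes with 1 probe set, the median percentile was 63.8 for the 1136 whose probe set has a letter and 45.1 for the other 8047. The 4 IRF genes, at percentiles 93.3 to 97.7, lay above the median of their own class. The part of probe set design in the order of the IRF genes was not tested.

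Promoter sequence of the 8 genes was searched next, because IRF genes such as Irf1 and Irf7 are themselves induced by interferon. RefSeq windows on build GRCm38.p6, from 250 bases before to 50 after an annotated start, were available for 8 of 8 genes (11 windows). They were searched on both strands for GAAANNGAA (the ISRE core), GGAANNGAA (the composite of an ETS factor such as PU.1 and an IRF) and TTCNNNGAA (the STAT element, the same on both strands). The 3 motifs can overlap one another. Matches were found for 3 of 8 genes, and each stretch below ends 30 bases beyond its matches, or at the edge of the window, and lies before the start. Capitals mark the matches. The Irf1 stretch is chr11:53769894-53769962, that of Irf2 chr8:46739495-46739559 and that of Irf8 chr8:120736157-120736243, each on the plus strand.
Irf1: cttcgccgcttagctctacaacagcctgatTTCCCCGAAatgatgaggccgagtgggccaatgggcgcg
Irf2: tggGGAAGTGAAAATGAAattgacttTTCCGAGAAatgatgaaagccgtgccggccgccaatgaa
Irf8: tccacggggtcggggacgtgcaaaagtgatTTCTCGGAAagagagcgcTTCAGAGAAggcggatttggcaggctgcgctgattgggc

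Irf1 held 1 STAT element, from -90 to -82 relative to the start, in 1 of its 2 windows. Irf8 held 2 of them, from -171 to -163 and from -153 to -145, also in 1 of its 2 windows. Irf2 held all 3 motifs: the composite (-247 to -239) overlaps the ISRE core (-241 to -233), and a STAT element follows (-224 to -216). The STAT element was thus present for 3 of 8 IRF genes, against 9.55% of 27025 genes with a window. The ISRE core and the composite were each present for 1 of 8, against 9.76% and 9.42%. By window rather than by gene, the shares over all 32851 windows were 8.3%, 8.56% and 8.24%. None of the 3 motifs was in the windows of Irf3, Irf4, Irf5, Irf7 and Irf9, which says only that these letters are not there. Of the genes with a STAT element, Irf1 and Irf2 read at percentiles 97.7 and 96.8 and Irf8 at 86.2 by the brightest probe set. Among those without one, Irf7, Irf9 and Irf3 read at 96.4, 93.3 and 91.6, all above Irf8. Irf5 and Irf4, also without one, read at 83.2 and 56.0, both below Irf8. The median percentile was 96.8 with the element and 91.6 without it, and a link of the element to signal was not tested. A match is a description of the sequence and not evidence of binding.

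Transcripts of the machinery that activates IRFs mostly reached the floor, and the kinases that phosphorylate IRF3 and IRF7 stood highest in the list. Of 23 measured sensors, adaptors and kinases, 22 reached the floor and 6 the 90th percentile, against 71.3% and 14.8% of all named genes. The median percentile was 86.2, against 61.4 over all named genes. Ikbke, which encodes IKK epsilon, read 4776.16, far above the 90th percentile signal of 619.81. Tbk1 read 3190.86 on its brightest and 1175.43 on its dimmest probe set (percentiles 98.2 and 94.5), so both lay above the 90th percentile. Tank, a scaffold of these kinases, read 1008.27 and Zbp1, a nucleic acid sensor, 925.86, each on the brightest of 2 probe sets. The kinase genes Irak1 and Ikbkb, named here after their values were seen, read 433.81 and 430.95 on their brightest probe sets, close to the list's median percentile. Tlr3, the receptor for double-stranded RNA that signals to IRF3, was the one member of the list below the floor by the brightest probe set, at 43.88. Sting1 and Mavs, also named after their values were seen, read 79.34 and 93.33 on their brightest probe sets. The dimmest Sting1 probe set read 38.36, below the floor. Every probe set of the gene reached the floor for 18 of the 23, against 49.7% of all named genes.

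Interferon genes were dim while the receptors were bright. Of 9 measured interferon genes (8 of type I, which IRF3 and IRF7 control, and Ifng), 4 reached the floor and 0 the 90th percentile. Over all named genes the shares were 71.3% and 14.8%. Each of the 9 was read by 1 probe set. Their median percentile was 38.6, against 47.2 over all 9183 genes with 1 probe set. Ifnb1, the textbook target of IRF3, read 36.66 (percentile 18.5). Ifng, the interferon that induces Irf1, read 73.36 (percentile 42.5). The interferon alpha genes Ifna9, Ifna1 and Ifna2 read 102.10, 84.41 and 72.00, and Ifna4 and Ifna11 read 35.16 and 14.06. Interferon alpha genes are near copies of each other, so a probe set may read several of them. The values describe RNA at 1 time, after 4 days.

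All 6 interferon receptor genes reached the floor, and 5 of them the 90th percentile, against 71.3% and 14.8% of all named genes. Ifnar2 read 4912.19 on its brightest and 390.14 on its dimmest of 3 probe sets (percentiles 99.1 and 85.0). Ifnar1, its partner in the type I receptor, read 1361.16 and 1044.37 (percentiles 95.4 and 93.9). The subunits of the interferon gamma receptor, Ifngr1 and Ifngr2, read 1410.89 and 1393.52 on their brightest probe sets. Il10rb, shared by the lambda interferon and interleukin 10 receptors, read 3221.82. The median percentile of the receptors was 95.5 by the brightest probe set and 88.7 by the dimmest.

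Partners and co-regulators of IRFs reached the floor in 21 of 21 cases, against 71.3% of all named genes. Of them 9 reached the 90th percentile, against 14.8% of all named genes, and the median percentile was 88.9. Spi1, which encodes PU.1, the partner of IRF4 and IRF8, read 1324.51 (percentile 95.2). Stat2, the partner of IRF9 in ISGF3, read 292.22 and 221.35 (percentiles 80.8 and 75.7). Cebpb, a factor of myeloid cells under inflammatory demand, read 10975.43 and 8994.66. The receptor kinase genes Jak1 and Jak2 read 3094.49 and 1642.63 on their brightest probe sets.

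The genes Irf2bp1, Irf2bp2 and Irf2bpl, listed among the co-regulators, differed among themselves. Irf2bp2 was read by 4 probe sets at 2776.3, 781.4, 687.9 and 276.4. Irf2bp1 read 259.48 on its single probe set (percentile 78.8). Irf2bpl was read by 3 probe sets at 195.5, 71.7 and 9.3, and the dimmest stood at percentile 1.5. Hence every probe set of Irf2bp2 lay above the array median, while those of Irf2bpl lay on both sides of the floor.

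**Figure D3:**
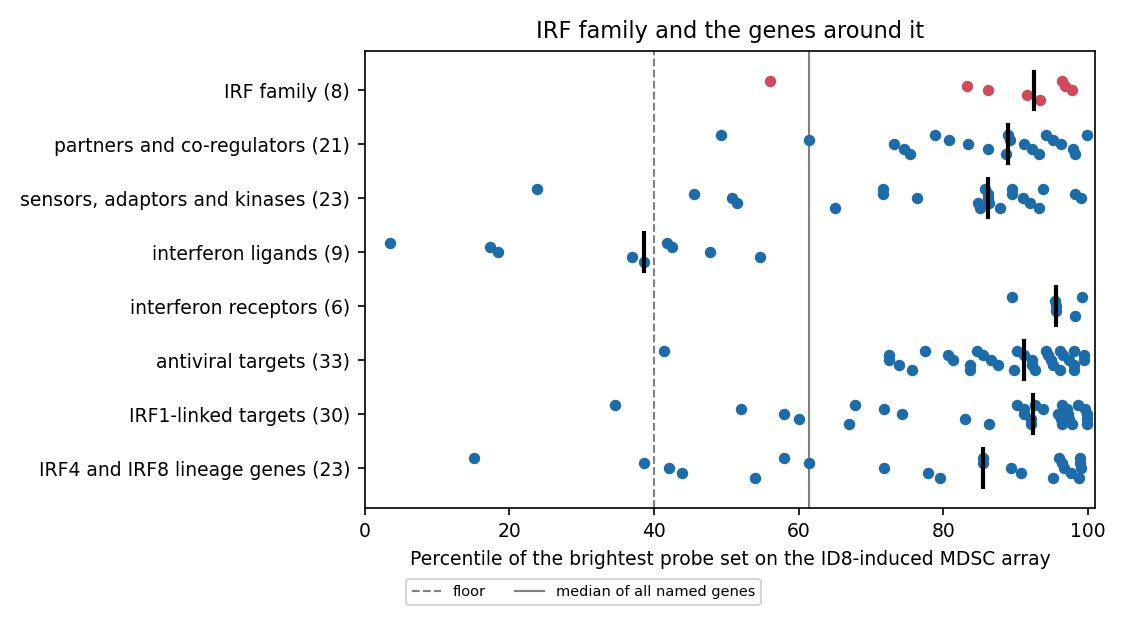
Percentile of the brightest probe set of each gene on the ID8-induced MDSC array, for the IRF family and 7 lists of genes around it (number measured in brackets); each dot is a gene and each black bar the median of its list. The 9 interferon genes lie at percentile 54.6 or below, whereas the IRF family and the 6 other lists have medians between 85.5 and 95.5.

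Antiviral genes of the kind that ISGF3 drives reached the floor throughout the list, and whether IRF9 drives them in these cells was not tested. Of 33 measured antiviral interferon-stimulated genes, 33 reached the floor and 18 the 90th percentile, against 71.3% and 14.8% of all named genes. The median percentile was 91.2. The strongest were Rsad2 (viperin) at 6341.73, Samd9l at 6046.15, Trim30a at 2916.68 and Rtp4 at 2902.26. The dimmest probe sets of Rsad2 and Trim30a still read 3451.30 and 1757.10, whereas that of Rtp4 read 145.64. No member of this list is an IRF, and the list was chosen with results on interferon-stimulated genes of this array known.

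Genes linked to IRF1, of antigen presentation and the interferon gamma response, reached the floor in 29 of 30 cases, against 71.3% of all named genes. The 90th percentile was reached in 20 cases, against 14.8% of all named genes, and the median percentile was 92.4. B2m, the light chain of MHC class I, read 13665.36 and 12854.60. The heavy chain genes H2-K1 and H2-D1 read 13243.61 and 12484.39 on their brightest and 182.84 and 79.66 on their dimmest probe sets, and these genes are close relatives whose probe sets can read each other. Cd274, which encodes PD-L1, read 6887.84. Ido1, the tryptophan-degrading enzyme, was the one member below the floor, at 59.33.

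For both target lists, the ISRE core stood more often in the promoter window than over all genes. It was present for 12 of 25 antiviral genes with a window (48%) and 11 of 22 IRF1-linked genes (50%), against 9.76% of all genes, and both lists hold genes known for this element. In the antiviral list the median percentile was 91.2 with the ISRE core and 87.6 without it. In the IRF1-linked list it was 92.6 with it and 96.2 without it, so presence of the core did not go with a higher median in both. Rsad2, the strongest antiviral gene, and B2m and Cd274, the 2 strongest IRF1-linked genes with a core before the start, are shown to set beside the IRF promoters, with the matches in capitals: Rsad2, chr12:26456533-26456601 on the minus strand, B2m, chr2:122147518-122147586 on the plus strand, and Cd274, chr19:29367332-29367400 on the plus strand. In Rsad2 and Cd274 the core lies on the opposite strand and is seen here as its reverse complement.
Rsad2: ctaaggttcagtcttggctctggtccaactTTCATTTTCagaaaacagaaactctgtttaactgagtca
B2m: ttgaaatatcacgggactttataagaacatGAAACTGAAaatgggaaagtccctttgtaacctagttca
Cd274: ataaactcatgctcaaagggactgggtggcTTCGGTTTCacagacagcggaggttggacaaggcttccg

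**Figure D4:**
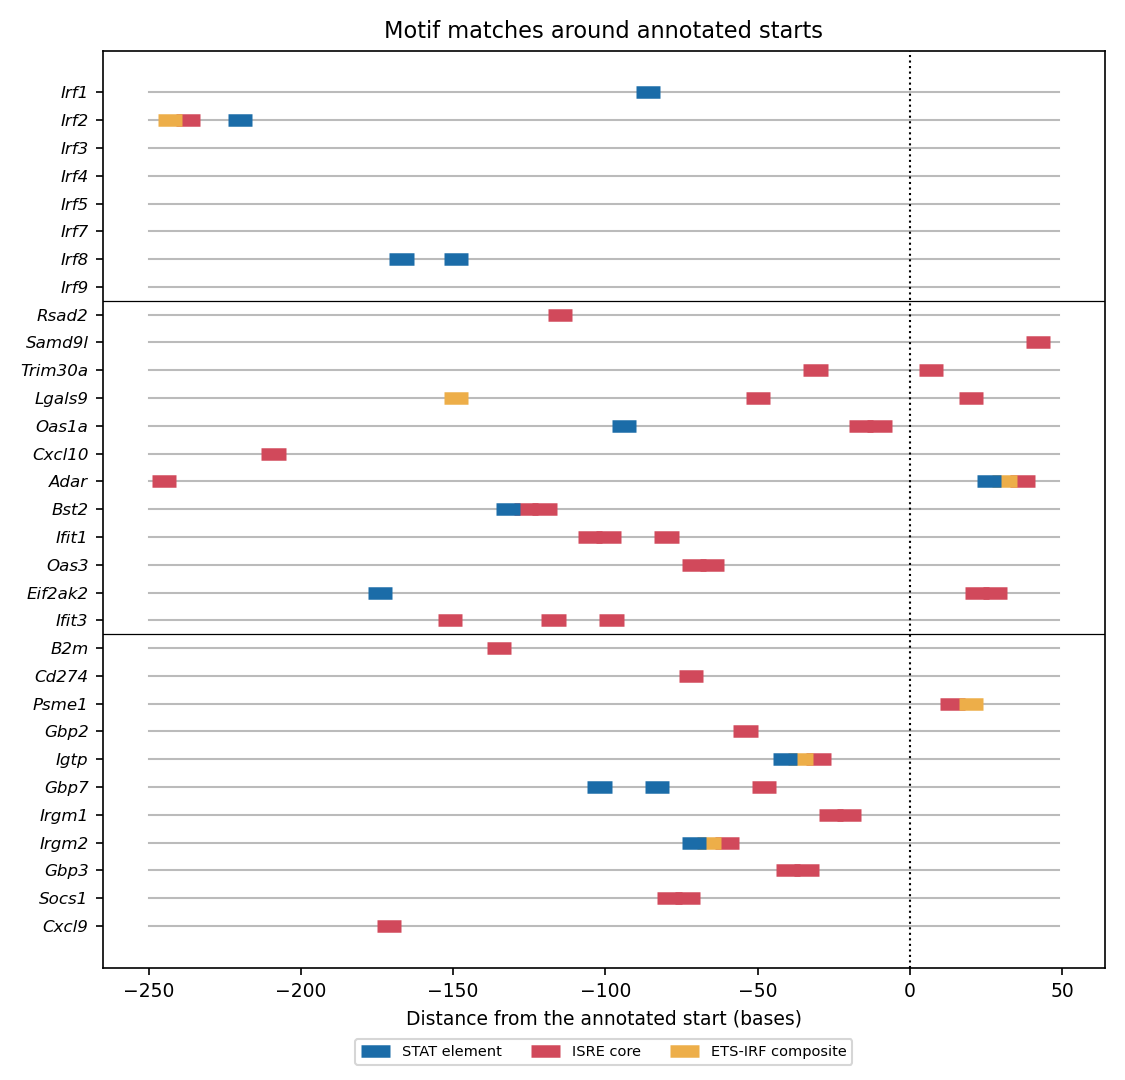
Matches of the ISRE core, the ETS-IRF composite and the STAT element by distance in bases from the annotated start, for the 8 IRF genes (top), the 12 antiviral genes with an ISRE core (middle) and the 11 IRF1-linked genes with one (bottom); grey lines are the searched windows, and windows of a gene with several starts are overlaid. Among the IRF genes, matches fall on Irf1, Irf2 and Irf8, at -82 or farther before the start.

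Genes tied to IRF4 and IRF8 gave a mixed picture. Of 23 measured, 21 reached the floor and 10 the 90th percentile, against 71.3% and 14.8% of all named genes. The median percentile was 85.5. Cybb, an oxidase gene activated by IRF8 and PU.1, read 4705.88, and Csf1r, whose product is the M-CSF receptor, 4402.90. Nfil3 and Ctss (cathepsin S) read 4314.94 and 4055.54. Prdm1, the plasma cell factor downstream of IRF4, read 66.28 and lay below the floor. Xcr1, a marker of the dendritic cells that need IRF8, read 32.24 (percentile 15.1). Of these 23 genes, 11 also stand in other lists used here.

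Markers of the labelled cell type and of other cells that use IRFs were read on the same array. Beside the counts below stand the shares over all named genes, 71.3% at the floor and 14.8% at the 90th percentile. Neutrophil markers reached the 90th percentile in 13 of 13 cases, from Padi4 at 1014.65 to S100a9 at 24856.67, with Itgam (CD11b) at 2374.74. Ly6g, which encodes an antigen of the Gr1 antibody, had no probe set named for it alone. Monocyte and macrophage markers reached the floor in 11 of 14 cases (median percentile 84.4), with Csf1r at 4402.90, Cd68 at 3597.10, Mrc1 at 35.06 and C1qa at 35.04. None of 11 plasmacytoid dendritic cell markers and none of 11 conventional dendritic cell markers reached the 90th percentile, although 10 and 9 reached the floor. Among the plasmacytoid markers, Klk1 and Spib read highest (599.93 and 430.10) and Siglech and Pacsin1 lowest (75.89 and 50.31). The dimmest of 4 Klk1 probe sets read 23.42, below the floor. Among the conventional markers, Fscn1 and Ccr7 read highest (301.52 and 233.98) and Clec10a and Xcr1 lowest (40.18 and 32.24). The dimmest of 4 Fscn1 probe sets read 32.58, also below the floor. B lineage markers, of cells that express Irf4 and Irf8, reached the floor in 11 of 11 cases and the 90th percentile in 0, from Pax5 at 78.12 to Blnk at 571.48. Every probe set of the gene reached the floor for 6 of 11 plasmacytoid, 6 of 11 conventional and 7 of 11 B lineage markers. For monocyte and macrophage markers this held for 7 of 14, and for all named genes in 49.7%. Of 8 plasma cell markers 5 reached the floor, with Xbp1 at 4583.33, Sdc1 at 552.82, Jchain at 47.08 and Tnfrsf17 at 43.13. Markers of epithelium and mesothelium, the origin of ID8 cells, reached the floor in 8 of 14 cases, T and NK cell markers in 11 of 15 and erythroid markers in 5 of 8, against 71.3% of all named genes. The 90th percentile was reached by 0 of the epithelial and mesothelial markers and 0 of the T and NK cell markers. Of the 8 erythroid markers 2 reached it, Alas2 at 1693.14 and Tfrc at 1476.15. The dimmest Tfrc probe set read 109.92, and the lowest erythroid markers, Hba-a1 and Car1, read 51.32 and 31.2. The part of any of these cells in the IRF signals was not tested.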

How the data were processed

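Per the submitters' processing notes, the authors used MAS5, and the deposited values are its linear signal intensity, with 1 value for each probe set and array. The sources used here do not give its version, scaling target or detection calls. The values were used as deposited. Gene symbols came from the platform annotation held by GEO, in which 34945 had 1 symbol, 932 several and 9160 none, and the first kind alone was used. Of the named ones 34741 matched the GRCm38.p6 gene table by Entrez ID, and 0 symbols differed. Before use, rises from row to row were counted. They made up 49.9% of 45036 steps in the ID8-induced column and 6.9% in the control column, so the control was not used.

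With 1 array per group, no test was possible, precision is limited by the number of arrays, and no gene could be named for a pattern like that of an IRF. IRF probe sets were read separately, and elsewhere a gene is given by its brightest probe set. The IRF genes, the 16 lists and the rules were chosen with earlier results of these data known. The text names every IRF gene, from each of 7 pathway lists the 4 highest genes and up to 2 below the floor, from the 9 marker lists genes among the 2 highest and 2 lowest, and a fixed set of interferon, receptor, kinase and partner genes. Of 271 listed symbols 237 had a probe set. A planned comparison of IRF proteins was not run, as no protein sequences were used here. Scripts were checked on inputs with known answers. Alternatives were other floors, other ways to represent a gene, leaving out probe sets that have a suffix letter, and a promoter window of 250 bases. Python 3.11.15, numpy 2.4.6, pandas 2.3.3 and matplotlib 3.10.9 were used.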

Additional observations from a re-analysis of the deposited data

Results flagged for a closer look

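The control column is a measured column that no description of the IRF genes uses, and it was picked out for its order: of 45036 steps from row to row, 22454 went up in the ID8-induced column (49.9%) and 3103 in the control column (6.9%), and within each of the control's 2 descending sequences there were 0. The origin of this order was not tested.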

How the results depend on the processing

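Moving the floor to the 60th percentile left each IRF count within 1.5 times its value. At the 20th percentile no count could move that far, since all stood at or near their maximum. By the brightest probe set, 8 of 8 IRF genes reached the 20th percentile and 7 of 8 the 60th. Of all 18193 named genes, 15924 and 9393 did. Without probe sets that carry a suffix letter, Irf1, Irf2, Irf7 and Irf9 were unmeasured. Counts then fell by construction to 6 of 7 IRF probe sets and 4 of 4 IRF genes above the floor, 3 of 4 with every probe set above it, and a median percentile of 73.4. That median was 86.2 with the mean log2 signal over probe sets and 82.8 with the dimmest. IRF genes above the floor were 8 of 8 with the mean and 7 of 8 with the dimmest. Over all named genes, 11285 of 16591 reached the floor without suffixed probe sets. With the mean 11360 of 18193 did, and with the dimmest 9037. No median over all named genes is given here for these alternatives. The signal of Irf3 was 264.05 with the mean and 135.67 with the dimmest, which is also its only probe set without a letter. The signal of Irf8 was 240.91 with the mean and 134.77 with the dimmest, and the dimmest gave 62.52 for Irf4 and 188.08 for Irf5. Median percentiles of the lists moved by over 5 points with the mean for partners (80.8), sensors and kinases (75.9) and IRF4 and IRF8 lineage genes (77.9). With the dimmest they moved for the same lists (75.7, 62.3 and 77.9), receptors (88.7) and antiviral targets (85.4). Interferon genes above the floor were 0 of 9 at the 60th percentile, and their median was 30.1 without suffixed probe sets. Antiviral genes with the ETS-IRF composite were 2 in the 250-base window, against 5. For marker lists, 29 of 72 alternatives moved, 28 of them down. No paired analysis was possible because each group has 1 array.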

Other observations

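The promoter windows of the interferon genes themselves held the ISRE core for 7 of 9 genes and the STAT element for 5 of 9, against 9.76% and 9.55% of all genes, while their median percentile on the array was 38.6. The alpha genes among them are near copies, so these are not independent counts. Over all named genes with a window, the median percentile was 60.1 for the 1258 with the ISRE core and 62.8 for the 13194 without it. For the STAT element it was 58.8 for 1239 genes with it and 62.9 for 13213 without it, and for the ETS-IRF composite 63.2 for 1263 with it and 62.6 for 13189 without it.

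Among neutrophil markers the ETS-IRF composite stood in the windows of 2 of 11 genes, against 9.42% of all genes with a window. With so few genes, these shares cannot be told apart. The pair is S100a8 and S100a9, chosen here after their values were seen. S100a9 read 24856.67, the strongest signal of the array. Over all named genes the medians with and without the composite were close (63.2 and 62.6), and a link of the composite to signal was not tested.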
